A study of Mus musculus with 32 samples.

Results

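Normal maturation of the tibialis anterior (TA), a fast muscle of the lower hindlimb, was followed from postnatal day 21 (P21) to P35 in wild-type (WT) mice. The comparison used 8 of the 32 RNAseq libraries of the series, chosen by their labels as WT at P21 (n=4) and WT at P35 (n=4), with 1 mouse per library. The mice were WT littermates from a colony on the C57BL6/J background that carries an *Mtm1* knockout (KO) allele, a targeted deletion in exon 4, and neither WT group carried a treatment. The other libraries are WT mice at P1 and P14 and KO mice at all 4 ages, and KO mice at P21 and P35 (n=4 each) enter below only to test whether the change with age differed. The labels name the tissue as skeletal muscle, and the TA comes from the study's text. RNA was selected by its poly(A) tail, and each library is bulk tissue.

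Between these ages mouse muscle passes from the nursing to the adult state. Over postnatal growth as a whole, in part before P21, fibres enlarge by adding sarcomeres and nuclei. In the same weeks slow and developmental isoforms of the contractile proteins give way to fast ones in a muscle such as the TA. Oxidative metabolism and calcium handling are completed as well. Growth genes of fetal and early postnatal life, many of them imprinted (expressed from 1 parental allele), are switched down after birth in most tissues, weaning replaces a diet of milk fat with one of carbohydrate, and puberty begins. These events are background to the period and not results of these data.

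The 8 libraries held 49321035 to 59697932 counts each. All 8 fast fibre markers checked were detected, and their summed level was 96970 to 141000 CPM (counts scaled to library size) at P21 and 80960 to 134800 CPM at P35, so that the ages overlapped. *Mtm1* itself was 15.8±0.774 CPM (mean±SD) at P21 and 16.8±1.54 CPM at P35, and did not pass the test (adjusted *P*=0.483, edgeR's quasi-likelihood test). The average distance between libraries, as the root mean square difference in log2 CPM over genes, was 0.468 within P21, 0.464 within P35 and 0.605 between the ages, and the first principal component held 41.8% of the variance. P-values measure the spread among 4 mice per age.

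From P21 to P35, 368 of the 15039 genes tested changed (2.45%), of which 210 rose (1.4%) and 158 fell (1.05%). A differentially expressed gene (DEG) here had an adjusted *P*-value under 0.01 in edgeR's quasi-likelihood test and a fold change over 1.5. Among DEGs averaging at least 1 CPM, the 10 largest rises included *Lrtm2*, *Fgfbp1*, *Ces1d*, *Smox* and *Mylk4*, and the 10 largest falls were haemoglobin and other red cell genes with *Kcne1l*, *Agtr2* and *Zfp385a*. In 3651 genes (24.3%) the 4 libraries of one age lay entirely above those of the other, 1979 of them higher at P35 (13.2%) and 1672 lower (11.1%), and these included all 368 DEGs. Over all genes the median log2 fold change was -0.0085. An unadjusted *P* under 0.05 in edgeR's test was found in 5174 genes (34.4%). These shares over all genes are the background for the counts of each list below. Scaling by library totals in place of TMM (trimmed mean of M-values) moved the split from 210 higher and 158 lower to 124 higher and 171 lower, with 269 DEGs shared. Leaving out any 1 library gave 116 to 264 DEGs, and 88 of the 368 (46 higher, 42 lower) were called in all 8 such fits. Many DEGs described below are not among these 88, and the fits that kept or lost a call are given with many of them.

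**Figure D1:**
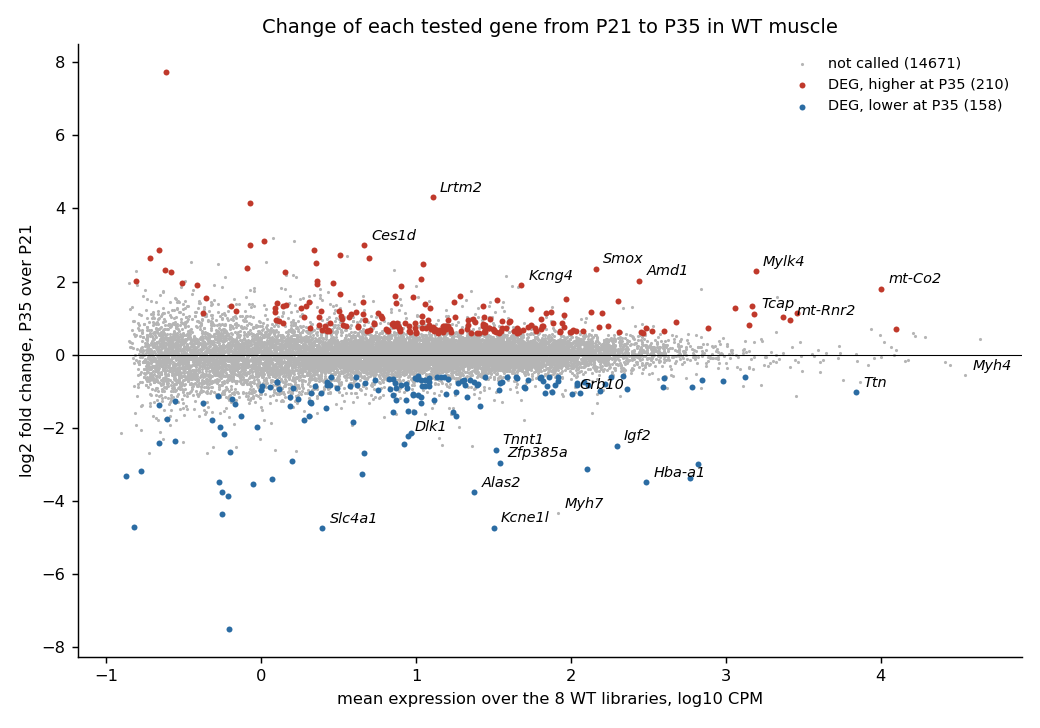
Each point is a tested gene, with its mean level over the 8 WT libraries on the x axis (log10 CPM) and its log2 fold change from P21 to P35 on the y axis. The 210 DEGs higher at P35 and the 158 DEGs lower at P35 are coloured, and the red cell genes with *Igf2* lie far below 0 while *Lrtm2* lies far above it.

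Genes of polyamine metabolism and the androgen axis included several of the largest rises. Of 18 tested members, 5 rose and 0 fell, against 1.4% of all genes rising. The 13 others did not pass the test, and the median log2 fold change of the 18 was 0.21 against -0.0085 for all genes. The list was chosen with earlier results of these data known, so its count is a description. With scaling by library totals, and with the length trend of each library removed, 3 of the 18 were called, without *Oaz1* and *Amd2*. Polyamines are small cations made from ornithine that muscle fibres need for growth, and several enzymes of the pathway are under androgen control in muscle.

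*Smox* (ENSMUSG00000027333, chr2:131491496-131525922, GRCm38) encodes spermine oxidase, which converts spermine back to spermidine. Its level was 41.1, 80.1, 32.4 and 35.7 CPM in the P21 libraries and 275, 253, 137 and 303 CPM in the P35 libraries. Every P35 library lay above every P21 library. The log2 fold change was 2.35 (SE 0.334, adjusted *P*=0.00441, edgeR's quasi-likelihood test). It was called in 2 of the 8 fits that left out 1 library, those without P21 replicate 2 or P35 replicate 3, and the highest adjusted *P* of edgeR's test in the others was 0.0168 with a log2 fold change of 2.21 to 2.73 over all 8.

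*Amd1* (chr10:40287458-40302186) encodes S-adenosylmethionine decarboxylase, which supplies the aminopropyl groups for spermidine and spermine. It stood at 117, 112, 90.4 and 116 CPM at P21 and at 583, 504, 161 and 525 CPM at P35. The ages did not overlap, but P35 replicate 3 lay much closer to the P21 libraries than the other P35 mice did. The log2 fold change was 2.03 (SE 0.338, adjusted *P*=0.00659, edgeR). It was called in 1 of the 8 fits leaving out a library, the one without P35 replicate 3, where it reached 2.31, and otherwise its adjusted *P* went up to 0.0219. *Amd2*, a near-identical copy on the same chromosome with a mean of 3.69 CPM at P35, also had P35 replicate 3 as its lowest P35 library, and its reads cannot be told apart from those of *Amd1* with certainty.

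The remaining members divide by role. *Oaz1*, whose product antizyme takes ornithine decarboxylase to the proteasome, rose from 233±16.8 to 353±46.6 CPM (log2 0.60, adjusted *P*=0.00746, edgeR), and was called only without P35 replicate 3 among the 8 fits, its log2 fold change ranging from 0.52 to 0.68. *Odc1*, the first enzyme of the pathway, was 77.2±6.13 CPM at P21 and 86.1±15.3 CPM at P35 and did not pass the test (adjusted *P*=0.4, edgeR). *Sms* and *Srm*, the spermine and spermidine synthases, did not pass it either (log2 0.51 and -0.16).

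*Mylk4* (ENSMUSG00000044951, chr13:32700834-32783954), a myosin light chain kinase family member that is highly expressed in striated muscle, rose from a mean of 530 to 2578 CPM. The P21 libraries held 538, 673, 471 and 439 CPM and the P35 libraries 3102, 1976, 2096 and 3136 CPM. Even the lowest P35 mouse was well above the highest P21 mouse. The log2 fold change of 2.28 (SE 0.203, adjusted *P*=0.000704, edgeR) was called in all 8 fits that left out a library. Its relative *Mylk2*, the kinase that phosphorylates the regulatory light chain of fast myosin, rose from 333±58.4 to 616±105 CPM (log2 0.89, adjusted *P*=0.00794, edgeR), but only without P35 replicate 3 did it remain called among those fits. With *Mylk4* it made up the 2 DEGs of the 11 tested myosin light chains and myosin-binding proteins, while 1.4% of all genes rose.

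*Lrtm2* (ENSMUSG00000055003, chr6:119315133-119330766), which encodes a transmembrane protein with leucine-rich repeats, had the largest rise of any gene named by rule. It was barely expressed at P21, with 0.587, 1.39, 1.89 and 1.02 CPM, and reached 19.8, 18.3, 13 and 46.2 CPM at P35. The log2 fold change was 4.31 (SE 0.476, adjusted *P*=0.00148, edgeR), and all 8 fits without 1 library kept the call. *Cacna2d4*, an auxiliary subunit of voltage-gated calcium channels that overlaps *Lrtm2* on the other strand of chromosome 6, rose too, from 3.36, 5.12, 2.4 and 2.49 to 17.2, 14.8, 10.9 and 31.7 CPM (log2 2.48, adjusted *P*=0.00476, edgeR), and was called in 3 of the 8 fits, without P21 replicate 2, P35 replicate 3 or P35 replicate 4, with an adjusted *P* up to 0.0169 in the rest. The library kit kept strand, but its use in counting is not given in the sources used here, so reads of these 2 overlapping genes cannot be separated with certainty.

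*Kcng4*, a modifier subunit of voltage-gated potassium channels, was chosen after its values were seen. It rose from 19.2, 17.8, 20.9 and 22.8 CPM to 72.5, 85.4, 55 and 87.1 CPM. The replicates of each age were tight and far apart (log2 1.89, SE 0.148, adjusted *P*=0.000558, edgeR), and the gene was called in all 8 fits without 1 library.

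**Figure D2:**
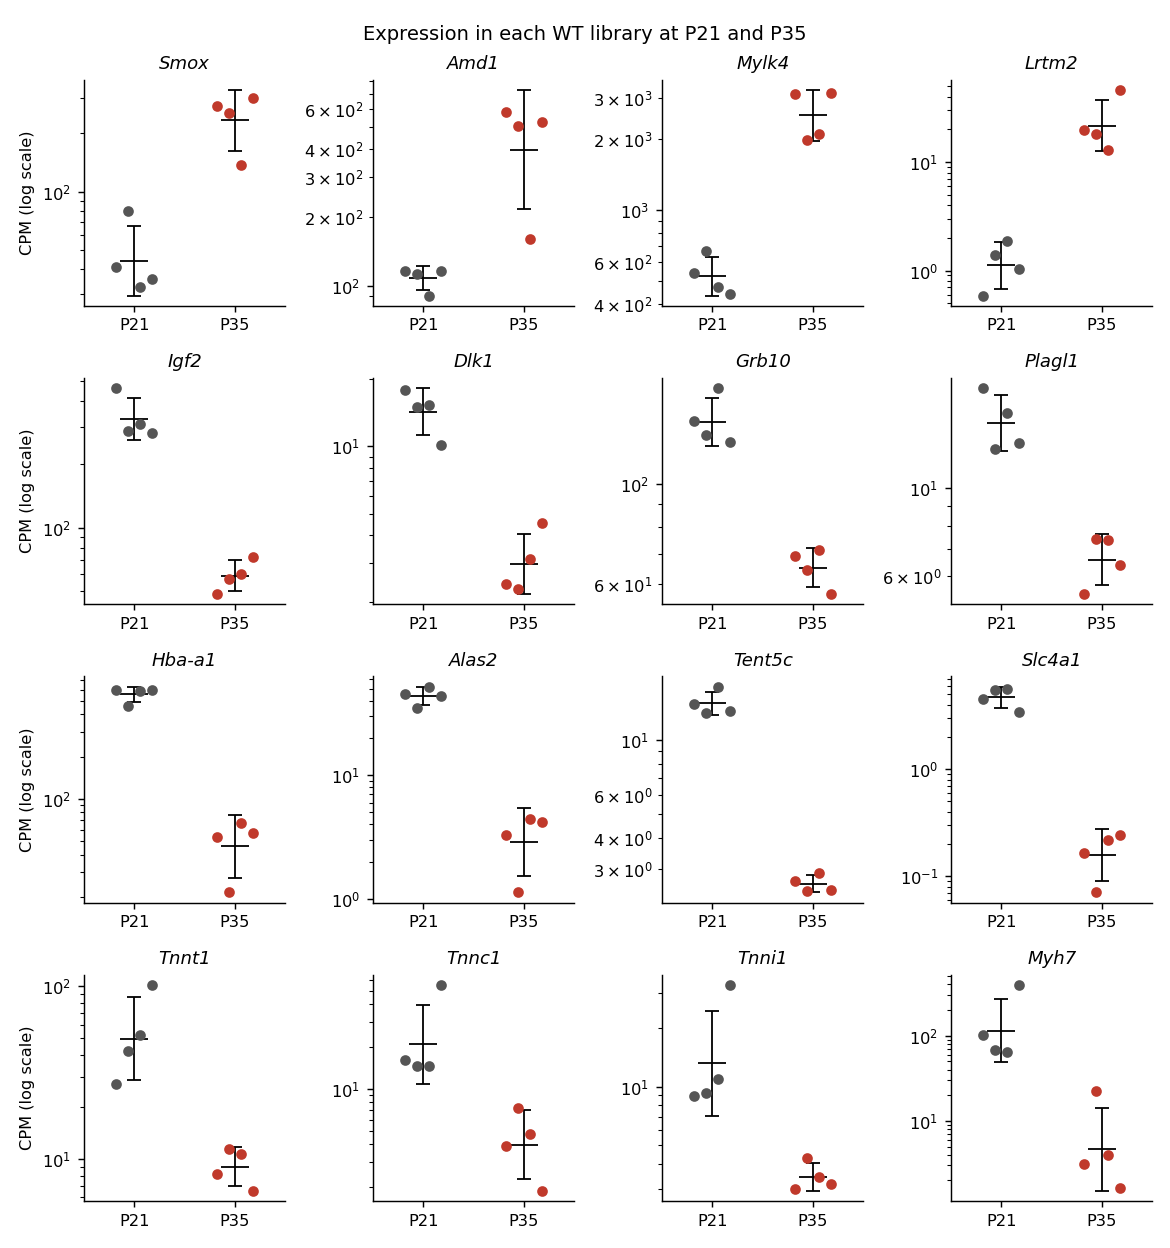
Expression of 16 genes in each of the 8 WT libraries, in CPM on a log axis, with P21 on the left and P35 on the right of each panel. Points are mice, and the bar with its error is the mean and SD of log10 CPM, n=4 per age. *Smox*, *Amd1*, *Mylk4* and *Lrtm2* rise without overlap, the growth, red cell and *Tnnt1* panels fall without overlap, and P21 replicate 4 is the highest point for the slow-fibre genes.

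The promoters of *Mylk4* and *Lrtm2* are shown because both genes rose strongly and kept their call in every fit without 1 library. The 250 bases before each start site, read 5′ to 3′ on the gene's strand from RefSeq (GRCm38.p6), are chr13:32783965-32784214 (minus strand) for *Mylk4* and chr6:119330767-119331016 (minus strand) for the upstream of the 2 promoters listed for *Lrtm2*. Capitals mark, in *Mylk4*, the reverse complement of AGAACA, a hexamer of steroid hormone response elements, at 171 bases before the start, and in *Lrtm2* the E-box CAGCTG of the kind bound by myogenic factors, at 36 bases before it.
Mylk4: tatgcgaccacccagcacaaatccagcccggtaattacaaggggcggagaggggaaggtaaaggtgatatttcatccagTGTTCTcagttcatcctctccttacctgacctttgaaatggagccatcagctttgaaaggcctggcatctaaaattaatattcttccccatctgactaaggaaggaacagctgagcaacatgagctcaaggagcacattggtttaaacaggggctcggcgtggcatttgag
Lrtm2: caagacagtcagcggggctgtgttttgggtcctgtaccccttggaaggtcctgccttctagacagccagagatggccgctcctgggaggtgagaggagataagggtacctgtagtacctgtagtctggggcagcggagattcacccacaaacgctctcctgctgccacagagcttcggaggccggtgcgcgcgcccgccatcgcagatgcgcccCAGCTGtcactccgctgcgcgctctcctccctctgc
Both strands were searched over 300 bases per promoter, from 250 bases before to 50 after the start. AGAACA occurs in 19% and CAGCTG in 16.3% of the 32851 mouse promoters of that length, so single matches are common. *Mylk4* also holds CAGCTG, and *Kcng4* holds it 130 bases before its start. *Smox* and *Amd1* held neither hexamer in this window. The other promoter listed for *Lrtm2* holds both. Genes that fell hold them too, AGAACA in *Alas2*, *Hbb-bs*, *Hbb-bt* and a promoter of *Igf2*, and CAGCTG in *Epb42*. Neither occurs in *Hba-a1*, *Hba-a2*, *Trim10* and *Dlk1*, which also fell. No 2 matches overlapped.

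Imprinted growth genes were among the clearest falls. Of 24 tested members, 7 fell and 0 rose, against 1.05% of all genes falling. In 11 the 4 libraries at P35 lay entirely below those at P21 (against 11.1% of all genes), in 1 entirely above, and the median log2 fold change was -0.49. The 7 DEGs were *Igf2*, *Dlk1*, *Peg10*, *Plagl1*, *Zim1*, *Grb10* and *Peg3*. Imprinted genes of this group regulate fetal and early postnatal growth, and many are expressed together in growing tissues.

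*Igf2* (ENSMUSG00000048583, chr7:142650766-142666816), the fetal insulin-like growth factor, is expressed from the paternal allele. It held 459, 288, 310 and 281 CPM at P21 and 48.4, 57, 60.1 and 72.8 CPM at P35. The ages were separated by a wide gap, and the fall was 2.49 on the log2 scale (5.62-fold; SE 0.186, adjusted *P*=0.000558, edgeR). On a common scale for all 32 libraries the WT mean was 5294 CPM at P1, 2001 CPM at P14, 438 CPM at P21 and 78.7 CPM at P35, so that the level was lower at each later age.

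*Dlk1*, a transmembrane relative of the Notch ligands that restrains differentiation of fat and muscle precursors, fell from 17.8, 15, 15.3 and 10.1 to 2.42, 2.3, 3.12 and 4.53 CPM. Its ages did not overlap, and the log2 fold change was -2.24 (adjusted *P*=0.00133, edgeR). *Grb10*, an adaptor that inhibits insulin and IGF receptor signalling, fell from 138±17.5 to 65.4±6.27 CPM (log2 -1.08, adjusted *P*=0.000943, edgeR). The growth regulator *Plagl1*, a zinc finger transcription factor, fell from 14.7±2.46 to 6.63±0.957 CPM (log2 -1.15, adjusted *P*=0.00232, edgeR). The retrotransposon-derived gene *Peg10* fell from 3.86±0.616 to 1.39±0.0714 CPM (log2 -1.48, adjusted *P*=0.000943, edgeR). These 4 genes and *Igf2* were called in all 8 fits without 1 library.

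The neighbours *Peg3* and *Zim1* on chromosome 7, both zinc finger genes, completed the 7. *Peg3* fell from 104, 88, 113 and 99.7 CPM to 62.6, 48.6, 41 and 47 CPM (log2 -1.02, adjusted *P*=0.00256, edgeR), and lost the call without P21 replicate 1, P35 replicate 2 or P35 replicate 4, with an adjusted *P* of at most 0.0111. *Zim1* fell from 29.3±7.23 to 13.2±1.49 CPM (log2 -1.15, adjusted *P*=0.00443, edgeR), and lost the call without P21 replicate 1 or without P35 replicate 1, 2 or 4, with an adjusted *P* of at most 0.0145. A further 3 genes with imprinted or X-linked growth roles, chosen after their values were seen, also fell: *Nrk* (log2 -2.70, SE 0.274), *Zdbf2* (log2 -1.57, SE 0.219) and the long non-coding RNA *Kcnq1ot1* (log2 -1.24, SE 0.11). Of these *Zdbf2* was called in 3 of the 8 fits, those without P21 replicate 2, P35 replicate 1 or P35 replicate 3, and the others in all 8. With the length trend removed *Kcnq1ot1*, with 93092 bases of exon, was -0.71 and not called.

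Not every imprinted transcript fell. *H19*, the non-coding RNA next to *Igf2*, was 4345, 5462, 5172 and 3906 CPM at P21 and 1911, 3306, 4063 and 4299 CPM at P35, so that the ages overlapped (log2 -0.48, adjusted *P*=0.189, edgeR). *Meg3*, *Rian* and *Mirg*, which share the *Dlk1* locus, had log2 fold changes of -0.51, -0.36 and -0.93 and were not called. *Gnas*, *Cdkn1c*, *Dcn* and *Snrpn* had log2 fold changes between -0.05 and 0.38. Along the wider growth hormone, IGF and insulin pathway of 34 genes, 2 fell (*Igf2* and *Grb10*) and 0 rose, with 13 entirely below and 2 entirely above. Over all genes 1.05% fell, 11.1% lay entirely below and 13.2% entirely above.

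Red cell genes gave the largest falls. All 7 tested erythroid markers fell, and their median log2 fold change was -3.49. Their summed level was 3257, 2435, 3341 and 3303 CPM at P21 and 341, 143, 446 and 388 CPM at P35. The 4 mice at P35 lay far below the 4 mice at P21. In bulk tissue, fewer cells of a type and less RNA per cell cannot be told apart, and the amount of blood left in the muscle was not measured.

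*Hba-a1* and *Hba-a2*, the adult alpha globins on chromosome 11, fell by 3.49 and 3.38 on the log2 scale (adjusted *P*=0.000704 and 0.000915, edgeR). *Hba-a1* held 595, 462, 587 and 597 CPM at P21 and 53.6, 21.5, 67.5 and 56.6 CPM at P35. The adult beta globins *Hbb-bs* and *Hbb-bt* on chromosome 7 fell by 3.0 and 3.12 (adjusted *P*=0.00116 and 0.00127, edgeR). The globin copies are near-identical within each pair, so the split within a pair is uncertain.

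*Alas2*, the erythroid form of the first enzyme of haem synthesis, fell from 45.5, 35.2, 51.9 and 43.9 CPM to 3.27, 1.13, 4.42 and 4.18 CPM (log2 -3.76, SE 0.346, adjusted *P*=0.000763, edgeR). *Slc4a1*, the band 3 anion exchanger of the red cell membrane, fell from 4.79±1.01 to 0.174±0.0761 CPM (log2 -4.76, adjusted *P*=0.00039, edgeR). All 7 markers were called in all 8 fits without 1 library.

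Further red cell genes, *Tent5c*, *Epb42* and *Trim10*, were chosen after their values were seen and fell too. *Tent5c*, a poly(A) polymerase expressed in erythroblasts among other cells, fell from 14.1, 12.9, 16.5 and 13.2 to 2.68, 2.44, 2.9 and 2.46 CPM and had an adjusted *P* of 2.37e-05 in edgeR's test. *Epb42*, which encodes protein 4.2, was 0.257, 0.396, 0.303 and 0.22 CPM at P21 and had at most 1 count in any P35 library. *Tent5c* and *Epb42* were called in all 8 fits without 1 library, but *Epb42* lost the call with DESeq2 and with the replicate block. *Trim10* was called only without P35 replicate 4 among the 8 fits, with an adjusted *P* of edgeR's test of up to 0.019 in the others. On the scale of all 32 libraries *Hba-a1* stood at 232 CPM at P1, 89 CPM at P14, 732 CPM at P21 and 65.7 CPM at P35 in WT mice, so that P21 was the highest of the 4 ages.

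The promoters of *Alas2* and *Hbb-bs* are shown because the red cell genes moved together and their shared regulator family binds a short motif. The 250 bases before the start, from RefSeq (GRCm38.p6), are chrX:150547167-150547416 (plus strand) for *Alas2* and chr7:103827929-103828178 (minus strand) for *Hbb-bs*. Capitals mark AGATAA, the core of GATA factor sites, or its reverse complement.
Alas2: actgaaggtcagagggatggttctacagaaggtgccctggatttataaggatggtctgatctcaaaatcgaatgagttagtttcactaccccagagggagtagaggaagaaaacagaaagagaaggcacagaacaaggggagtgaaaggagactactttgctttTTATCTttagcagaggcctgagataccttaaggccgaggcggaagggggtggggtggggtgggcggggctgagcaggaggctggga
Hbb-bs: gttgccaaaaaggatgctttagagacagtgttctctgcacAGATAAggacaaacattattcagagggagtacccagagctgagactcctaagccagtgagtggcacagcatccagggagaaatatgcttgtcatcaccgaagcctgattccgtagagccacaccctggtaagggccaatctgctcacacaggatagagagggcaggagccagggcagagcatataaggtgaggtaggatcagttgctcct
The motif lies 86 bases before the start in *Alas2* and 210 bases before it in *Hbb-bs*. On both strands of the 300-base windows it also occurs in *Epb42* and *Trim10*, and in both promoters of *Lrtm2*, a gene that rose. It has 0 matches in *Hba-a1*, *Hba-a2* and *Hbb-bt*. AGATAA is present in 11.2% of all 32851 promoters.

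Several slow-fibre genes stood lower at P35, with 1 of them called in edgeR's test, and others did not. *Tnnt1* (ENSMUSG00000064179, chr7:4504570-4516382), the slow skeletal troponin T, held 27.3, 42.2, 52.5 and 102 CPM at P21 and 8.19, 11.4, 10.7 and 6.54 CPM at P35. The ages did not overlap, and P21 replicate 4 was the highest. The log2 fold change was -2.60 (SE 0.38, adjusted *P*=0.00482, edgeR). The call was lost without P21 replicate 3 or without P35 replicate 1, 2 or 4, with an adjusted *P* of at most 0.0157. It was the only DEG of the 18 tested thin filament genes in edgeR's test, while DESeq2 called 5 lower and the fit with a replicate block 2 lower. The median of the list was -0.19, and 6 of its genes lay entirely below (against 11.1% of all genes) and 0 above.

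The partners of *Tnnt1* also stood lower at P35, with more spread. *Tnnc1*, slow troponin C, was 15.9, 14.4, 14.5 and 54.9 CPM at P21 and 3.89, 7.3, 4.73 and 1.87 CPM at P35 (log2 -2.49, adjusted *P*=0.0161, edgeR). *Tnni1*, slow troponin I, was 8.98, 9.27, 10.9 and 33 CPM and then 3.01, 4.33, 3.44 and 3.16 CPM (log2 -2.16, adjusted *P*=0.0114, edgeR). In both genes the ages were separate, and P21 replicate 4 stood well above the other P21 mice. Slow tropomyosin *Tpm3* was 98.1±30.3 and 49.1±7.59 CPM (log2 -1.0, adjusted *P*=0.0114, edgeR). *Myl2* and *Atp2a2*, the slow light chain and the slow calcium pump, chosen after their values were seen, had log2 fold changes of -2.52 and -1.01 and missed the call in edgeR's test (adjusted *P*=0.0121 and 0.0148), but were called by DESeq2, without a filter on low counts and with all 32 libraries in 1 fit. The fast counterparts *Tnnt3*, *Tnnc2* and *Tnni2* had log2 fold changes of 0.00, 0.02 and 0.25.

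Other genes of slow or oxidative fibres, also chosen after their values were seen, went other ways. *Myl3*, the slow essential light chain, was 51.6, 50.3, 83.3 and 72.1 CPM at P21 and 5.37, 69.6, 101 and 65.9 CPM at P35, with overlap (log2 -0.09, adjusted *P*=0.931, edgeR), and its sign turned without P21 replicate 3 or P35 replicate 1, to at most 0.29. *Mb*, myoglobin, was 492, 1080, 1811 and 903 CPM and then 1719, 3110, 4407 and 3481 CPM (log2 1.57, adjusted *P*=0.0258, edgeR). *Car3*, the muscle carbonic anhydrase, was 182, 311, 255 and 474 CPM and then 473, 1148, 771 and 1880 CPM (log2 1.81, adjusted *P*=0.0208, edgeR). The ages overlapped in both genes by 1 library, and both were called higher by DESeq2, with all 32 libraries in 1 fit and with the replicate block.

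None of the 10 tested myosin heavy chains was a DEG in edgeR's test, although 6 had an unadjusted *P* under 0.05 and DESeq2 called 2 lower. Over all genes 34.4% had an unadjusted *P* under 0.05. *Myh7*, the slow beta chain, went from 101, 67.6, 64.4 and 393 CPM to 3.14, 22.2, 3.99 and 1.63 CPM. The groups did not overlap, but P21 replicate 4 and P35 replicate 2 stood away from the others, and the log2 fold change of -4.34 had an SE of 0.953 (adjusted *P*=0.0166, edgeR). *Myh8*, the perinatal chain, was 18.5±3.5 and then 6.69±3.69 CPM (log2 -1.47, adjusted *P*=0.015, edgeR), after 15322 CPM at P1 and 292 CPM at P14 on the scale of all 32 libraries. *Myh4*, the fastest chain (IIB) and the most abundant of the 10, was 49758, 44640, 26798 and 45827 CPM and then 41156, 26566, 18317 and 27253 CPM, with overlap (log2 -0.56, adjusted *P*=0.192, edgeR). *Myh1* (IIX) and *Myh2* (IIA) had log2 fold changes of -0.17 and -0.86 and overlapped as well.

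Per kilobase of exon, *Myh4* was the highest of these chains at both ages, with 6941 and 4708 CPM per kb. *Myh1* followed with 2393 and 2125 CPM per kb, then *Myh2* with 234 and 129 CPM per kb. *Myh7* went from 18.2 to 0.897 CPM per kb. The order *Myh4*, *Myh1*, *Myh2*, *Myh7* was thus the same at both ages, on group means.

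Of 29 Z-disc and M-band genes, 1 rose and 3 fell, against 1.4% of all genes rising and 1.05% falling. DESeq2 called 2 higher and 6 lower. In 10 the P35 libraries lay entirely below those at P21 and in 1 entirely above, against 11.1% and 13.2% of all genes. *Tcap*, the titin cap of the Z-disc, rose from 691, 1160, 749 and 1214 CPM to 2131, 1737, 2513 and 1939 CPM. Its ages were separate (log2 1.13, adjusted *P*=0.00874, edgeR), but the call was lost without any 1 library, with an adjusted *P* of 0.0137 to 0.0241. *Xirp1*, an actin-binding protein of attachment sites and of injured fibres, fell from 150, 157, 168 and 144 CPM to 80.7, 81.1, 76.2 and 62.5 CPM. Both ages were tight (log2 -1.04, SE 0.0944, adjusted *P*=0.000704, edgeR), and the call held in all 8 fits without 1 library. *Fbxl22*, a Z-disc F-box protein, fell from 15.2±5.13 to 6.14±1.22 CPM (log2 -1.31, adjusted *P*=0.00801, edgeR), and was called in 1 of the 8 fits, with an adjusted *P* of up to 0.0269 in the others, those without P21 replicate 1, 3 or 4 or without any P35 replicate.

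*Ttn* (chr2:76703980-76982547), the titin gene with the longest transcript of muscle, fell from 11423, 6820, 8929 and 9821 CPM to 5309, 3575, 4622 and 4647 CPM. The lowest P21 mouse lay above the highest P35 mouse (log2 -1.03, SE 0.185, adjusted *P*=0.00819, edgeR). *Neb*, nebulin, was 7051±1229 and then 4349±705 CPM and was not called (log2 -0.70, adjusted *P*=0.0235, edgeR). With the length trend of each library removed, *Ttn* was -0.46 and no longer a DEG, and it was also lost in 7 of the 8 fits without 1 library, all but the one without P21 replicate 2, with an adjusted *P* of up to 0.0264.

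Gene length and age moved together across the whole table. With the genes divided into 10 bins of equal size by exon length, the median log2 fold change was 0.0996 in the shortest bin (204 to 1523 bases) and -0.148 in the longest (9691 bases or more). In the shortest bin 40 genes rose and 23 fell, and in the longest bin 5 rose and 28 fell. The median exon length was 2914 bases in DEGs that rose, 5654 bases in DEGs that fell and 4263 bases in the rest. The part of length in each result was not tested beyond the fit with the trend removed, which gave 307 DEGs, 268 of them shared. Of the 80 DEGs named by rule or in the text, 19 were lost in that fit, among them *Ttn*, *Mylk2*, *Tcap*, *Tsc22d3*, *Irf7*, *Ifit3*, *Gabarapl1*, *Sypl2* and *Dysf*.

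**Figure D3:**
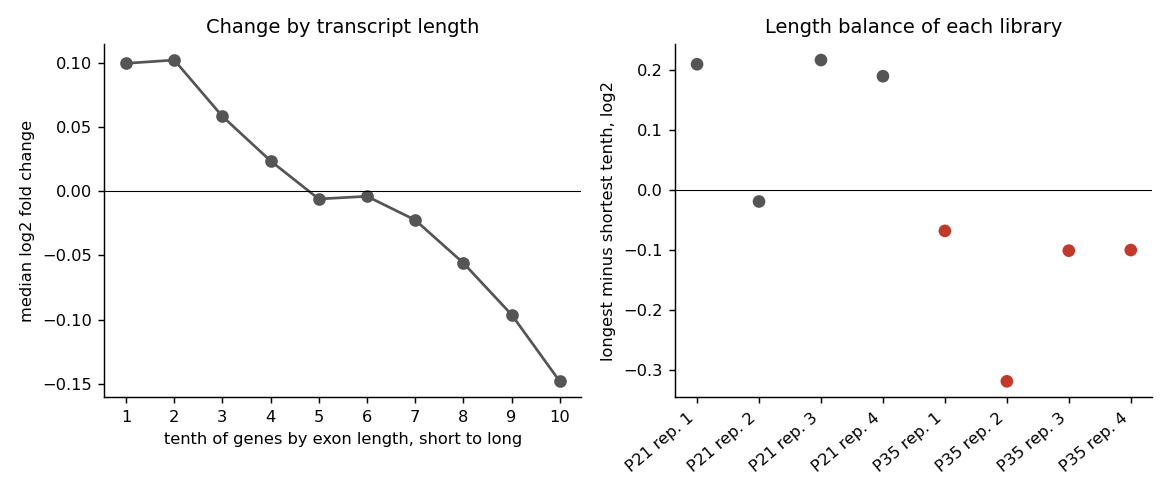
Left, the median log2 fold change from P21 to P35 in each of 10 bins of genes by exon length, which runs from 0.0996 in the shortest to -0.148 in the longest bin. Right, for each WT library, the median log2 level of the longest bin minus that of the shortest bin after centring each gene on its mean over the 8, at -0.019 to 0.217 for P21 and -0.319 to -0.068 for P35.

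Transcripts of the mitochondrial genome stood higher at P35. Of 15 tested, 7 rose (against 1.4% of all genes) and 0 fell. Of the 15, 13 lay entirely higher at P35 (against 13.2% of all genes), and the median log2 fold change was 0.53. At P21 the mitochondrial genome gave 9.75% to 12.0% of a library's counts, against 12.4% to 17.9% at P35, and with 5 copies on chromosome 1 added the shares were 12.9% to 15.8% and 16.6% to 23.8%. The 7 were the ribosomal RNAs *mt-Rnr1* and *mt-Rnr2*, the cytochrome oxidase subunits *mt-Co2* and *mt-Co3*, the complex I subunits *mt-Nd1* and *mt-Nd3*, and *mt-Atp6* of the ATP synthase. With the counts of 5 of the genes summed with those of their near-identical copies, an alternative chosen after the data were seen, 4 of the 15 rose (*mt-Rnr1*, *mt-Rnr2*, *mt-Nd1* and *mt-Nd3*).

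*mt-Rnr1*, the small ribosomal RNA of the mitochondrion, held 596, 741, 694 and 624 CPM at P21 and 1647, 1535, 1617 and 1674 CPM at P35. Replicates were tight and the ages far apart (log2 1.29, SE 0.0935, adjusted *P*=0.000558, edgeR). *mt-Rnr2*, the large one, rose from 1767±144 to 3383±200 CPM (log2 0.94, adjusted *P*=0.00127, edgeR). Both were called in all 8 fits without 1 library. Libraries were selected for poly(A) tails, so the level of these RNAs also reflects how they were captured, which was not measured.

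*mt-Co2* rose from 4278, 5165, 4767 and 3585 CPM to 9275, 19509, 12546 and 21026 CPM. The P35 mice were all higher but spread over a wide range (log2 1.81, adjusted *P*=0.00484, edgeR). *Gm28661*, a copy on chromosome 1 whose 681 bases all match *mt-Co2*, was 9291, 9283, 9537 and 8683 CPM at P21 and 8305, 1832, 11208 and 517 CPM at P35, so that the P35 libraries lowest in the copy were the highest in *mt-Co2*. Summed, the pair held 13569, 14448, 14304 and 12268 CPM at P21 and 17581, 21341, 23754 and 21543 CPM at P35, a log2 fold change of 0.63 that was not called (adjusted *P*=0.0176, edgeR). The split of reads between gene and copy is uncertain, and with it the larger value for *mt-Co2* alone. *mt-Co3* rose from 1531±55.4 to 3134±671 CPM (log2 1.03, adjusted *P*=0.00498, edgeR), and summed with its copy *Gm28437* it was 0.65 and not called (adjusted *P*=0.0135, edgeR). As deposited, *mt-Co2* and *mt-Co3* were called only without P35 replicate 1 or 3 among the 8 fits, with an adjusted *P* of up to 0.0177 in the others. The most abundant mitochondrial messenger, *mt-Co1*, was 36956±2884 and then 49704±7764 CPM without overlap, and was not called (log2 0.43, adjusted *P*=0.119, edgeR).

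The 5 copies, named after their values were seen, did not move alike. *Gm28438* (of *mt-Nd3*) and *Gm29216* (of part of *mt-Co1*) rose by 1.34 and 1.13 on the log2 scale, *Gm10925* (of *mt-Atp6*) and *Gm28437* (of *mt-Co3*) had log2 fold changes of 0.69 and 0.60 and were not called, and *Gm28661* had one of -0.75 with overlap. Ungapped identity to the gene was 98.8% for *Gm29216*, 99.7% for *Gm28438* and 100% for the others. Summed with its copy, *mt-Nd3* had a log2 fold change of 1.12 (adjusted *P*=0.000949, edgeR) and *mt-Atp6* one of 0.70, which missed the call. The nuclear partners gave 0 DEGs in edgeR's test and 0 in DESeq2. Over all genes 34.4% had an unadjusted *P* under 0.05, and 13.2% lay entirely higher. Of 37 complex I genes, 16 had an unadjusted *P* under 0.05, 13 lay entirely higher and 0 lower, and the median was 0.16. Of 40 genes of complexes III to V, 12 had an unadjusted *P* under 0.05, 8 lay entirely higher and 2 lower, and the median was 0.13. Nuclear genes of both lists are short, with median exon lengths of 1569 and 1631 bases, in the range where the median of all genes was above 0.

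Collagen genes stood lower as a list, and other matrix genes were divided in direction. Of 28 fibrillar and basement membrane collagens 4 fell and 0 rose, 13 lay entirely lower and 0 higher, and the median log2 fold change was -0.45. Over all genes 1.05% fell and 11.1% lay entirely lower. The summed level of the collagens was 5431 to 9078 CPM at P21 and 4472 to 6074 CPM at P35, so that the ages overlapped. The DEGs were *Col5a1*, *Col5a3*, *Col6a6* and *Col3a1*. *Col5a1*, a chain of the collagen V that nucleates fibrils, fell from 157, 175, 153 and 175 CPM to 84.1, 84.6, 103 and 96.3 CPM. The 2 ages were well apart (log2 -0.84, SE 0.0866, adjusted *P*=0.00116, edgeR). *Col5a3* fell from 90.4±3.48 to 50.3±5.14 CPM (log2 -0.85, adjusted *P*=0.000915, edgeR), and both held their call in all 8 fits without 1 library. *Col6a6*, a collagen VI chain, fell from 21±1.96 to 9.97±2.16 CPM (log2 -1.07, adjusted *P*=0.00331, edgeR), and lost the call without P21 replicate 1 or 4 or P35 replicate 1 or 2, with an adjusted *P* of at most 0.0128. The list had a median exon length of 8150 bases.

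Of 46 genes of other matrix proteins and collagen processing, 3 fell and 0 rose, against 1.05% of all genes falling. The median log2 fold change of the 46 was -0.13, with 20 above 0 and 26 below. Their summed level was 3721 to 5326 CPM at P21 and 4117 to 4832 CPM at P35, so that the ages overlapped. Fibrillin 1 (*Fbn1*) fell from 139±18 to 78.2±12.9 CPM (log2 -0.83, adjusted *P*=0.00646, edgeR), laminin beta 1 (*Lamb1*) from 101±15.2 to 56.3±11.3 CPM (log2 -0.84) and laminin gamma 1 (*Lamc1*) from 260±19.5 to 173±25.7 CPM (log2 -0.59). These 3 DEGs lost the call with the length trend removed. *Lamb1* and *Lamc1* lost it without any 1 library, with an adjusted *P* of up to 0.0292, and *Fbn1* without P21 replicate 2, 3 or 4 or P35 replicate 1, 2 or 4, with an adjusted *P* of up to 0.0211. The 10 fibroblast markers gave 0 DEGs in edgeR's test (3 with an unadjusted *P* under 0.05, and 1 lower in DESeq2), and their summed level of 977 to 1254 CPM at P21 and 1117 to 1388 CPM at P35 overlapped.

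Interferon-stimulated and antigen presentation genes stood higher as a list. Of 42 tested, 2 rose and 0 fell, against 1.4% of all genes rising. But 39 had a log2 fold change above 0, 17 lay entirely higher (against 13.2% of all genes) and 0 lower, and the median was 0.55. DESeq2 called 12 higher. The 2 DEGs were *Irf7*, the transcription factor that amplifies type I interferon, from 2.59±0.395 to 4.48±0.644 CPM (log2 0.79, adjusted *P*=0.00996, edgeR), and *Ifit3*, an interferon-induced antiviral gene, from 3.82±1.05 to 8±1.35 CPM (log2 1.07, adjusted *P*=0.00915, edgeR). *Irf7* lost the call without any 1 library (adjusted *P* up to 0.0306) and *Ifit3* in all fits but the one without P21 replicate 4 (up to 0.0271). *Ifi205*, an interferon-inducible gene outside the list, was among the 10 largest rises, from 0.808, 1.73, 0.889 and 2 CPM to 14.4, 6.1, 8.25 and 5.24 CPM (log2 2.64, adjusted *P*=0.00503, edgeR). It kept its call without P21 replicate 4 or without P35 replicate 1, 3 or 4, and reached an adjusted *P* of 0.0168 in the others. Summed macrophage markers were 73.7 to 87.6 CPM at P21 and 61.5 to 84.6 CPM at P35, and T, B and NK cell markers 2.41 to 3.99 CPM and 1.86 to 2.85 CPM, so neither was higher at P35, and 7 of the 10 lymphoid markers did not pass the filter on low counts.

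Genes induced by glucocorticoids and by FoxO factors stood higher, with few calls. Among 20 glucocorticoid-responsive genes 1 rose, 17 had a log2 fold change above 0, and the median was 0.64. *Tsc22d3*, the glucocorticoid-induced leucine zipper, rose from 117, 122, 102 and 90 CPM to 495, 203, 266 and 217 CPM. P35 replicate 1 was far above the others (log2 1.46, adjusted *P*=0.00889, edgeR), the gene was called in 1 of the 8 fits, the one without P35 replicate 1, and in the others its adjusted *P* reached 0.0263. Among 29 atrophy and FoxO genes 2 rose and 0 fell, 12 lay entirely higher and 0 lower, and the median was 0.43. Over all genes 1.4% rose and 13.2% lay entirely higher. *Foxo4*, itself a FoxO transcription factor, rose from 88.6, 95.6, 86.4 and 102 CPM to 167, 138, 137 and 144 CPM (log2 0.65, SE 0.0861, adjusted *P*=0.00307, edgeR), and lost the call without P21 replicate 1 or P35 replicate 4 (adjusted *P* up to 0.013). The autophagy gene *Gabarapl1* rose from 25±3.93 to 39±3.79 CPM (log2 0.64, adjusted *P*=0.00915, edgeR) and lost the call without any 1 library (up to 0.027).

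Fuel genes showed single changes. Of 47 genes of fatty acid uptake and oxidation, ketone use included, 2 rose and 0 fell, against 1.4% of all genes rising. *Bdh1* and *Oxct1*, the enzymes that oxidise ketone bodies, were these 2. *Bdh1* was low, with 0.514, 1.15, 0.984 and 0.732 CPM at P21 and 3.65, 3.01, 12.1 and 3.51 CPM at P35, where replicate 3 was the highest (log2 2.72, adjusted *P*=0.00874, edgeR). *Oxct1* rose from 312±29.1 to 486±57.8 CPM (log2 0.64, adjusted *P*=0.00659, edgeR). Each was called in 1 of the 8 fits without 1 library, *Bdh1* without P35 replicate 3 and *Oxct1* without P35 replicate 2, with adjusted *P*-values of up to 0.0295 and 0.0231 otherwise.

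Of 46 glycolysis and glycogen genes 1 fell, against 1.05% of all genes. *Eno1*, the enolase form of immature and non-muscle cells, fell from 152, 157, 141 and 155 CPM to 94, 91.1, 83.2 and 93.6 CPM (log2 -0.74, SE 0.0665, adjusted *P*=0.000704, edgeR), and held in all 8 fits without 1 library. *Ces1d*, a carboxylesterase that hydrolyses stored lipid, rose from 0.386, 1.32, 1.31 and 1.13 CPM to 12, 5.64, 7.63 and 7.64 CPM (log2 2.99, adjusted *P*=0.00198, edgeR), called in all 8 fits. Summed adipocyte markers were 166 to 264 CPM at P21 and 179 to 281 CPM at P35 and overlapped. The 23 genes of the TCA cycle gave 0 DEGs in edgeR's test (4 with an unadjusted *P* under 0.05, 1 lower in DESeq2), and their median was -0.0027.

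Single genes outside these groups were among the largest changes. *Kcne1l*, a small potassium channel subunit gene on the X chromosome, fell from 95.1, 21.6, 63.4 and 64.3 CPM to 1.68, 2.97, 3.12 and 1.41 CPM (log2 -4.73, SE 0.471, adjusted *P*=0.000975, edgeR). *Zfp385a*, a zinc finger gene, fell from 91.4, 42.9, 59.9 and 53.4 CPM to 8.29, 6.28, 11.7 and 5.64 CPM (log2 -2.96, adjusted *P*=0.000943, edgeR). *Agtr2*, the type 2 angiotensin receptor of fetal tissues, fell from 2.16±0.387 to 0.201±0.0773 CPM (log2 -3.41, adjusted *P*=0.000558, edgeR). All 3 were separate between ages and called in all 8 fits. On the scale of all 32 libraries *Agtr2* had been 169 CPM at P1 and 10.1 CPM at P14.

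*Fgfbp1*, a carrier protein that releases fibroblast growth factors, rose from 0.165, 0.283, 0.189 and 0.22 CPM to 2.1, 2.21, 0.87 and 2.24 CPM (log2 3.10, adjusted *P*=0.00156, edgeR), called in all 8 fits. *C7*, a complement component made by fibroblasts, and *Tfcp2l1*, a transcription factor, rose by 2.87 and 2.51 on the log2 scale, called in 1 fit (without P21 replicate 1) and 2 fits (without P21 replicate 4 or P35 replicate 3) with adjusted *P*-values of up to 0.0153 and 0.0264 in the others. *Chac1*, a glutathione-degrading gene of the endoplasmic reticulum stress response, rose from 2.88, 5.01, 5.07 and 3.68 CPM to 14.4, 17, 27.4 and 11 CPM (log2 2.07, adjusted *P*=0.00431, edgeR). It was the only DEG of 36 chaperone and stress genes, while 1.4% of all genes rose. The call was lost without P21 replicate 1, 3 or 4 or P35 replicate 2, with an adjusted *P* of at most 0.0142 in edgeR's test.

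Satellite cell and cell cycle markers stood lower with few calls, and the wider myogenic list was divided in direction. Of 29 myogenic and satellite cell genes 1 fell, *Cdh15*, the M-cadherin of satellite cells, from 18.1, 16.5, 19.7 and 19.1 CPM to 13.3, 12.9, 10.8 and 10.7 CPM (log2 -0.62, adjusted *P*=0.00588, edgeR). It kept the call without P21 replicate 2 or P35 replicate 1 and otherwise reached an adjusted *P* of 0.0184. The median of the 29 was -0.13, with 11 above 0 and 18 below. Over all genes 1.05% fell. Their summed level of 3224 to 3477 CPM at P21 and 3240 to 3709 CPM at P35 overlapped. The 8 satellite cell markers summed to 61.3 to 82.9 CPM at P21 and 49.1 to 58.1 CPM at P35, without overlap. The 53 cell cycle genes gave 0 DEGs in edgeR's test, with 21 at an unadjusted *P* under 0.05 (39.6%, against 34.4% of all genes) and 2 lower in DESeq2. Of the 53, 47 had a log2 fold change below 0 and the median was -0.70. But 3 lay entirely lower at P35 (against 11.1% of all genes) and 1 entirely higher (against 13.2%). Their summed level overlapped, at 384 to 635 CPM and 338 to 450 CPM. The proliferation marker *Mki67*, chosen after its values were seen, was 8.96, 19.3, 33.3 and 7.65 CPM at P21 and 2.86, 7.67, 5.22 and 6.75 CPM at P35, where the ages overlapped.

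*Tubb6*, the beta tubulin of immature and regenerating fibres, fell from 27.4, 24.1, 25.9 and 20.2 CPM to 9.95, 15.2, 9.19 and 13.4 CPM (log2 -1.03, adjusted *P*=0.00636, edgeR). It was the only DEG of 12 tubulin genes in edgeR's test, while DESeq2 called 4 lower, and all 12 had a log2 fold change below 0. *Tubb6* was called only without P35 replicate 2 among the 8 fits, with an adjusted *P* of up to 0.0201 in edgeR's test otherwise. With *Igf2*, *Dlk1* and *Peg3* it made up the 4 DEGs, all lower, of the 22 developmental genes and isoforms, of which DESeq2 called 8 lower. Over all genes 1.05% fell. *Egr3*, an immediate early gene needed for muscle spindles, fell from 2.21±0.576 to 0.84±0.134 CPM (log2 -1.39, adjusted *P*=0.0057, edgeR), as the only DEG of 23 immediate early genes in edgeR's test. It was called only without P21 replicate 2 (adjusted *P* up to 0.018 in the others), and the median of its list was -0.59. DESeq2 called 8 of the 23 lower and 0 higher, and 13 had an unadjusted *P* under 0.05 in edgeR's test (56.5%, against 34.4% of all genes). In 7 the P35 libraries lay entirely below those at P21 and in 1 entirely above, against 11.1% and 13.2% of all genes.

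In calcium handling and membrane repair 2 of 37 and 1 of 28 genes fell. Over all genes 1.05% fell and 1.4% rose. *Sypl2*, the mitsugumin 29 of the triad, fell from 1195±198 to 729±70.4 CPM (log2 -0.71, adjusted *P*=0.00867, edgeR), and dysferlin (*Dysf*), in both lists, from 99.3±13 to 65.1±7.81 CPM (log2 -0.61, adjusted *P*=0.0098, edgeR). Both lost the call without any 1 library, with adjusted *P*-values of up to 0.0258 and 0.0303. *Atp2a1*, the fast calcium pump and one of the 5 most abundant genes, was 27879±2794 and 24075±4815 CPM with overlap (log2 -0.21). The inhibitor of myostatin *Wfikkn2* was the only DEG of 26 genes of the myostatin and activin pathway, rising from 5.63±0.875 to 9.69±0.996 CPM (log2 0.78, adjusted *P*=0.00601, edgeR), and it was called only without P21 replicate 4 among the 8 fits (up to 0.02 in the others).

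Several lists gave 0 DEGs in edgeR's test. Their counts at an unadjusted *P* under 0.05 stand against 34.4% of all genes. The 78 cytosolic ribosomal proteins had 26 genes (33.3%) at an unadjusted *P* under 0.05, 0 DEGs in DESeq2 and a median of -0.05. The 37 proteasome genes had 15 and 0 by the same measures, with a median of 0.16. The 20 circadian clock genes had 8 at an unadjusted *P* under 0.05 and 3 DEGs in DESeq2. Among them *Arntl* was 7.62, 5.27, 22.2 and 3.06 CPM at P21 and 2.31, 3.29, 3.14 and 2.95 CPM at P35, and *Per2* 7.42, 6.2, 0.776 and 11.5 CPM and then 24.7, 11, 19.8 and 15.8 CPM. In P21 replicate 3 the first was the highest and the second the lowest of all 8 libraries. The time of day of collection is not given in the sources used here. The 20 neuromuscular junction genes had 4 at an unadjusted *P* under 0.05 and 1 lower in DESeq2, the 18 muscle ion channels 4 and 0, the 34 genes of mitochondrial biogenesis 11 and 1 lower, the 32 of ribosome biogenesis 14 and 1 lower, the 33 of lipid and sterol synthesis 17 with 2 higher and 5 lower, and the 13 of the thyroid hormone axis 7 with 2 higher and 2 lower.

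**Figure D4:**
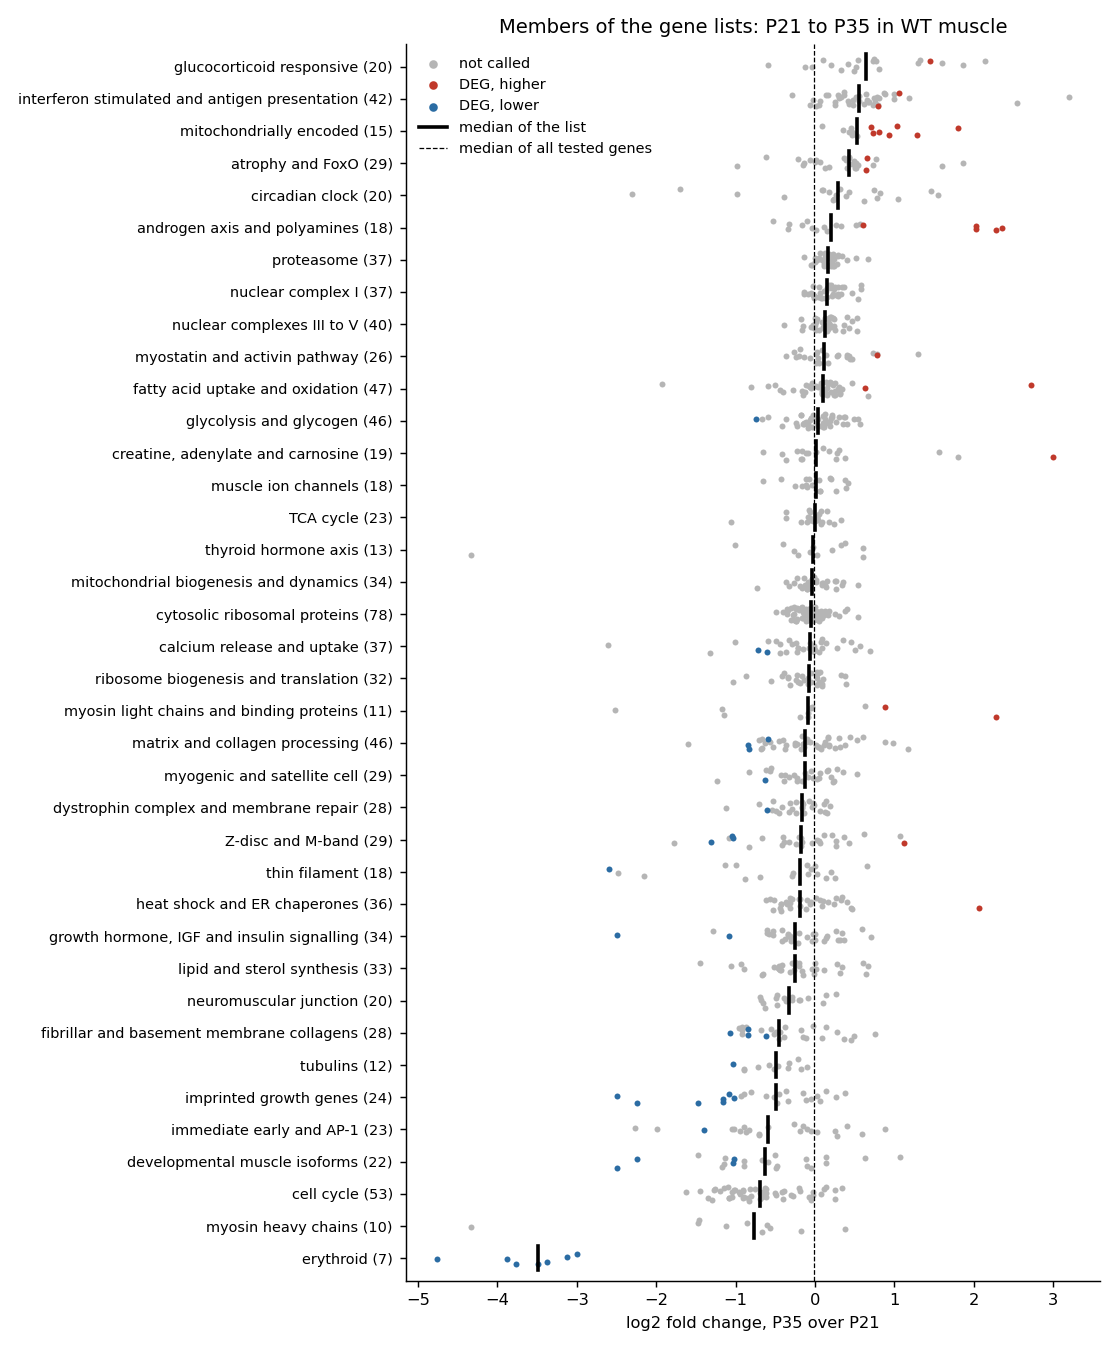
Log2 fold change from P21 to P35 of every tested member of each pathway list and of the erythroid markers, 1 row per list with its number of tested genes, DEGs coloured by direction. Black bars are list medians and the dashed line the median of all genes, and the erythroid list lies farthest to the left while the mitochondrially encoded list lies right of 0 in all 15 members.

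Other tissue in the dissection was checked by marker lists. Schwann cell markers summed to 307 to 717 CPM at P21 and 79.3 to 485 CPM at P35, and tendon markers to 15.8 to 535 CPM and 151 to 516 CPM. All 10 Schwann cell markers had a log2 fold change below 0 (median -0.98) and all 8 tendon markers one above 0 (median 0.71). The summed levels overlapped between ages in both lists, which gave 0 DEGs in edgeR's test and in DESeq2 (2 and 0 genes with an unadjusted *P* under 0.05). Endothelial markers summed to 588 to 893 CPM and 372 to 647 CPM, smooth muscle and pericyte markers to 2985 to 3070 CPM and 3000 to 3296 CPM. Both had 0 DEGs in edgeR's test, 2 genes at an unadjusted *P* under 0.05 and 1 lower in DESeq2. The part of these cells in any result was not tested.

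The last comparison asked where the change from P21 to P35 differed in *Mtm1* KO muscle. Of 16028 genes, 9 differed (0.0562%; adjusted *P* under 0.01 in the interaction of edgeR's quasi-likelihood test over 16 libraries), 3 with a higher and 6 with a lower change in KO. At an unadjusted *P* under 0.05 there were 2879, and DESeq2 called 355. Of the 9, *Lrtm2*, *Tnnt1*, *mt-Rnr1*, *mt-Rnr2* and *Pcmtd1* were DEGs in WT. Levels below are means on the scale of all 32 libraries, which differs from that of the 8 WT libraries. With scaling by library totals the split turned to 15 higher and 4 lower. Leaving out each of the 16 libraries gave 3 to 8 genes. In 7 of these fits, those without KO P21 replicate 1, 2 or 3, KO P35 replicate 3, WT P21 replicate 3 or WT P35 replicate 2 or 3, there were 0 with a higher change in KO, so that *Tnnt1*, *Hmga1* and *Alox12* were not called.

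*Lrtm2* rose in WT from 1.59±0.694 to 32.2±19.9 CPM, and stood at 2.86±1.38 and 2.11±0.851 CPM in KO (difference of log2 changes -4.75, SE 0.674, adjusted *P*=0.00647, edgeR). *Tnnt1* fell in WT from 72.8±41.7 to 12.2±2.96 CPM, and in KO was 130±25.1 and then 253±113 CPM (difference 3.55, SE 0.502, adjusted *P*=0.00647, edgeR). *mt-Rnr1* rose in WT from 866±77.4 to 2136±82.4 CPM and was 967±66.4 and 983±156 CPM in KO (difference -1.26, adjusted *P*=0.00189, edgeR). *mt-Rnr2* gave a difference of -1.17 (adjusted *P*=0.00136, edgeR), and *Pcmtd1*, a protein carboxyl methyltransferase family member, one of -0.54 (adjusted *P*=0.00647, edgeR). In each of these genes the KO groups at P21 and P35 lay closer together than the WT groups, or in the opposite order.

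The other 4 changed little in WT. *Pde4a*, a cyclic AMP phosphodiesterase, was 105±4.51 and 98.3±12.2 CPM in WT and fell from 59.6±5.85 to 25.5±1.11 CPM in KO (difference -1.11, adjusted *P*=0.00136, edgeR). *Pcca*, *Hmga1* and *Alox12* gave differences of -0.54, 0.76 and 2.11, and were named because so few genes were called. For *Smox* and *Amd1* the difference was -1.96 and -1.97, with adjusted *P*-values of 0.0481 and 0.0261 in edgeR's test, above the 0.01 used here. For *Igf2* (0.81, adjusted *P*=0.104, edgeR) and *Hba-a1* (0.07, adjusted *P*=0.952, edgeR) no difference was called, and both stood lower at P35 than at P21 in KO too, at 359±55.5 and 112±21 CPM for *Igf2* and at 534±149 and 49.6±19.4 CPM for *Hba-a1*.

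**Figure D5:**
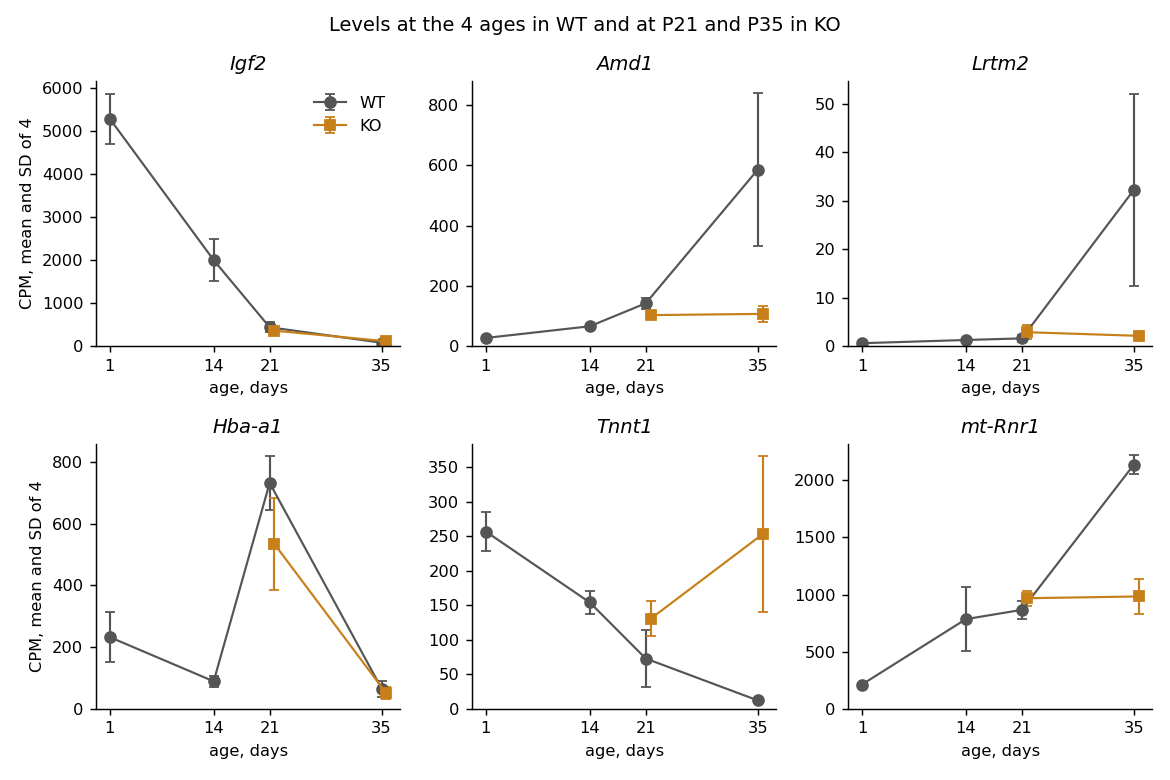
Mean level and SD (n=4) of 6 genes in WT at P1, P14, P21 and P35 and in KO at P21 and P35, in CPM on 1 scale for all 32 libraries and against age in days. WT *Lrtm2* is 1.59 CPM at P21 and 32.2 CPM at P35 while KO is 2.86 and 2.11 CPM, and *Igf2* and *Hba-a1* are lower at P35 in both genotypes.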

How the data were processed

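Poly(A) RNA of TA muscle was sequenced from 1 mouse per library, and groups were taken from the genotype and age labels. The authors deposited a table of expected counts (estimated counts per gene, which need not be whole; 4.26% of values were not) for 54838 genes, not scaled and not pooled. Per the labels, the submitters' processing notes name STAR 2.6.1 and RSEM 1.2.22 with GRCm38, while the study's methods name HTSeq as counter. The library kit was directional. The annotation release and the use of strand in counting are not given in the sources used here. Symbols, coordinates and exon lengths came from GENCODE M21. The number of value columns not used was 0.

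Counts were rounded and tested in R 4.3.3 with edgeR 4.0.16: the 8 WT libraries, filterByExpr by age, TMM, glmQLFit (legacy deviances) and glmQLFTest, two-sided, Benjamini-Hochberg adjusted over 15039 genes. A DEG needed an adjusted *P*-value below 0.01 with an absolute log2 fold change over 0.585. The interaction with genotype used 16 libraries. CPM values are TMM-scaled, distances used a prior count of 2, and SE is that of the log2 fold change. Folds against groups at 0 counts used a floor of 3 counts. SD and SE include the spread among mice, while floors cover counting error only. Every pair of replicates differed by more than sampling noise (chi-square per gene of at least 26.5).

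Named genes were the 10 largest DEGs in each direction averaging at least 1 CPM without overlap, up to 3 DEGs per list and direction, all tested members of 5 lists, *Mtm1*, the 5 most abundant genes and the 5 smallest interaction *P*-values. Some of these genes are not reported here. Others are said to have been chosen after their values were seen. The members and gene lists were chosen with earlier results of these data known. Alternatives were DESeq2 1.42.0, other scalings, filters, thresholds, sample sets and deviances, counts not rounded, the replicate number as a block, removal of mitochondrial and sex genes, and each library left out. Removal of the length trend, and the sum of 5 mitochondrial genes with their chromosome 1 copies, were added after seeing the data. Same-numbered libraries were not taken as pairs (see the closing section). The scripts were tested on simulated data. Figures were drawn with matplotlib 3.10.9 under python 3.11.15.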

Additional observations from a re-analysis of the deposited data

Results flagged for a closer look

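Within each age, 342 groups of 4 libraries, over the named genes, were checked on log2 CPM for a library far from the other 3, by a test that flags about 1 in 20 groups by chance. It marked 26 (7.6%), and 10 of them were P35 replicate 3. In P35 replicate 3 the low values were *Amd1* at 161 CPM (others 504 to 583 CPM), *Amd2* at 1.25 CPM, *Bhlhe41* at 44.1 CPM, *Fgfbp1* at 0.87 CPM, *Gnas* at 882 CPM, *Nnat* at 0.127 CPM and *Sypl2* at 624 CPM, and the high values *Bdh1* at 12.1 CPM, *Eln* at 85.5 CPM and *Ppp1r9a* at 4.88 CPM. In P21 replicate 4 the slow-fibre genes *Tnnc1* at 54.9 CPM, *Tnni1* at 33 CPM and *Atp2a2* at 222 CPM were high, and *Gm29216* at 1410 CPM was low. In P21 replicate 2 *Hba-a1* at 462 CPM, *Hba-a2* at 836 CPM and *Hbb-bs* at 909 CPM were low. In P35 replicate 1 *Myl3*, the slow essential light chain, was low at 5.37 CPM (others 65.9 to 100.9 CPM), and *Atp2a1* at 31300 CPM and *Myh3* at 5.06 CPM were high. In P21 replicate 1 *Ces1d* at 0.386 CPM and *Fbn1* at 112 CPM were low, in P21 replicate 3 *Amd1* at 90.4 CPM was low and *Igf2r* at 143 CPM high, and in P35 replicate 4 *Myh8* at 12.2 CPM was high and *Vdr* at 0.0521 CPM low.

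The change from P21 to P35 differed between KO and WT in 9 genes by edgeR's interaction test. The difference of log2 changes, KO minus WT, was -4.75 for *Lrtm2*, -1.26 for *mt-Rnr1*, -1.17 for *mt-Rnr2*, -1.11 for *Pde4a*, -0.54 for *Pcmtd1*, -0.54 for *Pcca*, 0.76 for *Hmga1*, 2.11 for *Alox12* and 3.55 for *Tnnt1*.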

How the results depend on the processing

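The 368 DEGs became 845 with DESeq2 (356 shared), 744 with all 32 libraries in 1 fit (318 shared), 596 with 16 libraries (338 shared), 980 at an adjusted *P* under 0.05, 718 without a fold threshold, 155 at a log2 fold change over 1 and 37 with glmTreat against 1.5-fold. Leaving out 1 library gave 116 to 264. Other scalings, filters, deviances, unrounded counts, removal of mitochondrial and sex genes and of the length trend gave 295 to 468. The 9 interaction genes became 86 with 32 libraries (5 shared), 19 with library totals (7 shared; 15 higher and 4 lower), 355 with DESeq2 (9 shared) and 3 to 8 without 1 library. Same-numbered libraries of P21 and P35 come from different mice, the correlation of their deviations was 0.077, 0.129, 0.321 and -0.00038, and 3 of 4 correlated best with their own number. Since 2 of the 4 correlations were not over 0.1, the numbers were not taken as pairs. With the replicate number as a block, 175 DEGs (140 shared) and 19 interaction genes (6 shared) were called. Of 80 named DEGs, 46 stayed called under the block, 65 with library totals, 61 with the length trend removed and 78 with DESeq2. No named gene that was called changed sign under any of these. The cause of these differences was not tested, except that stricter thresholds give fewer calls by construction. A fit with fewer libraries can also gain calls, as the one without P21 replicate 2 called 216 genes, 180 of them shared. A gene at or under 3 counts in a library, 0.0558 CPM at P21 and 0.0537 CPM at P35, cannot be told from absence.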

Other observations

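A few genes outside the lists were nearly absent at one age. *Krt2*, a keratin of the epidermis, had 0 counts in all 4 P21 libraries and 0.258, 0.99, 0.29 and 0.399 CPM at P35, which is at least 8.68-fold higher against a floor of 3 counts. *Gm14440*, a member of a repeated zinc finger family, held 0.698, 0.377, 3.56 and 0.293 CPM at P21 and at most 1 count in any P35 library. Both lost their call with library totals, with the length trend removed, with all 32 libraries in 1 fit, with edgeR 4's adjusted deviances and without most single libraries. The 4 tested keratinocyte markers summed to 6.19 to 8.67 CPM at P21 and 7.65 to 8.36 CPM at P35, with overlap. Of these markers 2 lay entirely higher at P35 and 0 lower, and 1, *Krt10*, rose. The call of *Krt10* was kept in 0 of the 8 fits without 1 library. *Irx3* and its antisense transcript *Irx3os* rose together, *Irx3* from 0.606, 1.45, 0.889 and 0.897 CPM to 3.65, 2.9, 4.06 and 3.94 CPM (log2 1.92, adjusted *P*=0.00265, edgeR) and *Irx3os* by 4.14 on the log2 scale (SE 0.634). Both lost the call with the replicate block and without P21 replicate 3 or 4, and *Irx3os* also without P21 replicate 1 or 2 or P35 replicate 2. Their gene models overlap, so reads of the pair cannot be separated with certainty. *Vdr*, the vitamin D receptor gene, fell from 1.93, 0.885, 2.78 and 0.97 CPM to 0.185, 0.159, 0.163 and 0.0521 CPM (log2 -3.54, adjusted *P*=0.00368, edgeR), and was 10.2 CPM at P1 and 2.7 CPM at P14 on the scale of all 32 libraries. It lost the call without P21 replicate 1 or without P35 replicate 1, 2 or 4, with an adjusted *P* of at most 0.0136. *Krt2*, *Gm14440*, *Irx3*, *Irx3os* and *Vdr* were chosen after their values were seen.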
